A study of Mus musculus with 21 samples.

Results

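Mouse CD8 T cells kept in interleukin-15 (IL-15) at 50 IU/mL were compared between day 10 and day 5 of the same culture scheme. All cells of the 2 libraries titled OT10_1550 and OT5_1550 were taken, which gave 6548 cells on day 10 and 5809 cells on day 5, or 12357 of the 106456 cells in the 21 libraries of the study. OT1 cells are CD8 T cells from mice whose transgenic receptor recognises an ovalbumin peptide. In the study they were taken naive (day 0) or activated with beads that carry antibodies to CD3 and CD28, and were then grown without cytokine or with IL-2, an IL-2 form written IL-2v, or IL-15 at 5 or 50 IU/mL until day 3, 5 or 10. Both libraries described here are bead-activated OT1 cells in IL-15 at 50 IU/mL, and they differ by the day on which they were sampled. The library titles and the design text name IL-15, but the treatment field of these 2 samples reads Interleukin-16, and the titles were followed here. The extraction text describes sorted tumour-infiltrating OT1 cells (live, CD44+, CD45.1+, CD8+) while the growth text describes cultured cells, and the libraries are treated as cultured cells. Each condition has 1 library, so no spread between cultures can be given, no p-value is printed, and day, culture and library preparation cannot be told apart.

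IL-15 is a cytokine of the common gamma chain family. It signals through the receptor chains IL-2R beta (Il2rb) and common gamma (Il2rg) to the kinases JAK1 and JAK3 and the transcription factor STAT5, which induces survival genes such as Bcl2 and its own inhibitors, among them Cish and Socs1. Activated CD8 T cells first divide quickly and build lipids, nucleotides and proteins, and IL-15 is known for keeping such cells alive as they leave this phase and for supporting memory-like cells.

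The values are unique molecular identifiers (UMIs), which count captured mRNA molecules. The UMIs of each gene were summed over the cells of a library divided by the library total and multiplied by 1000000, which is the unit CPM. The difference between the days is log2(CPM + 1) on day 10 minus that on day 5, and a gene is called higher or lower where it changed at least 2-fold on that scale. Intervals are exact Poisson intervals for levels and exact Clopper-Pearson intervals for shares of cells, at 95%, and cover counting error only. The library totals were 31864193 UMIs on day 10 and 23288848 on day 5, with medians of 4383 and 3617 UMIs per cell. Shares of cells with a UMI of a gene were therefore taken after thinning each cell to 2000 UMIs. Cells under 2000 UMIs were left out there, 110 on day 10, 219 on day 5 and 306 of the naive cells. Thinned values thus cover 6438, 5590 and 4471 cells. Over all cells and without thinning, so at unequal depth, Cd3d, a chain of the T cell receptor complex, was found in 97.7% of cells on day 10 and 96.3% on day 5, and Cd8b1 in 91.9% and 86.0%. Of the markers of B cells, myeloid cells, natural killer cells and CD4 or regulatory T cells, Ms4a1, Pax5, Igkc, Lyz2, Csf1r, Ncr1 and Foxp3 were at 0 in both libraries. Other markers had UMIs, 4 of 8 for B cells and 5 of 6 for natural killer and gamma delta T cells in each library. Of 9 myeloid markers, 4 had UMIs on day 5 and 3 on day 10. Of 4 CD4 or regulatory T cell markers, 3 and 2 had UMIs. UMIs assigned to Ighm were nonetheless present in 61.8% of day 10 cells and 76.9% of day 5 cells, and those of Trdc in 37.3% and 27.5%. The summed level of 8 B cell markers was 484.7 CPM on day 5 and 249.4 on day 10, that of 6 natural killer and gamma delta T cell markers 137.7 and 193.1, that of 9 myeloid markers 90.9 and 73.8, and that of 4 CD4 or regulatory T cell markers 11.3 and 4.802. Most of the myeloid sum was Cst3 (88.5 and 72.9) and most of the CD4 sum Zbtb7b (10.3 and 4.33). Cd4 itself was at 0.086 CPM on day 5, from 2 cells, and at 0 on day 10. The libraries shared 19 cell barcodes. Cells with over 5% mitochondrial UMIs made up 3.50% of day 10 cells and 39.8% of day 5 cells, and ribosomal protein genes took 39.8% and 32.7% of the UMIs. The part of these differences in the results below was not tested beyond the alternatives of the closing section.

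Between day 5 and day 10 the high-dose IL-15 cells had fewer transcripts of genes for cholesterol and fatty acid synthesis and for mitosis, fewer of several interferon-response and inhibitory receptor genes and of granzyme B, and more of several glycolytic and hypoxia-response genes and of the STAT5 target Cish. Of 5468 genes at 20 CPM or more in either library, 45 were at least 2-fold higher on day 10 (0.823%) and 243 at least 2-fold lower (4.44%). The median difference over all 5468 genes was -0.14. TMM scaling multiplies each library total by 1 factor, here 0.935 on day 10 and 1.07 on day 5, and takes most genes as unchanged. With TMM scaling 66 were higher and 168 lower, and the median was 0.07. Calls in the higher direction thus made up 15.6% of all calls with library totals and 28.2% with TMM scaling. Among genes at 100 CPM or more in the higher library, the 12 with the largest drop were Iigp1, Hmgcs1, Scd2, Cyp51, Fdps, Lars2, Gm42418, Mki67, AY036118, Ube2c, Gzmb and Cenpf. The 12 with the largest rise were Bnip3, Pfkl, Cish, Pgam1, Dusp2, Ccl5, Eno1, Fam162a, Selenow, Pfkp, Clcn3 and Tpi1. Of the 288 called genes, 143 are members of the 40 gene lists used below. A list member that reached 20 CPM only through the library in which it was high is more likely to be called. The lists and their members were also chosen with earlier results of these data known. The list counts are therefore descriptions beside the background shares of 0.823% and 4.44%, and an excess over these shares is no test of a list.

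**Figure D1:**
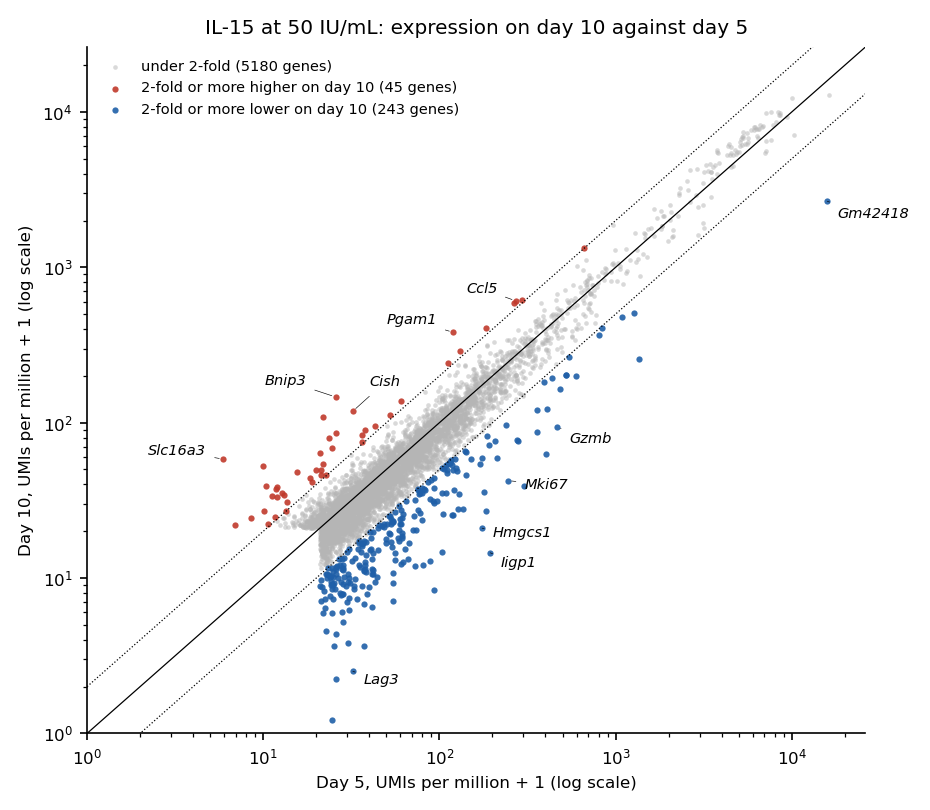
Each point is 1 of the 5468 genes, with its CPM plus 1 on day 5 (horizontal, log scale) and on day 10 (vertical, log scale) in IL-15 at 50 IU/mL. The solid line marks equal levels and the dotted lines 2-fold differences. The 45 higher genes (red) include Bnip3, Pgam1 and Slc16a3, and the 243 lower genes (blue) include Hmgcs1, Iigp1, Mki67 and Gzmb.

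Most genes of the sterol and fatty acid synthesis list that reached 20 CPM were lower on day 10. Of its 33 genes, 29 reached 20 CPM, 26 of these were at least 2-fold lower on day 10 and none was higher, with a median difference of -2.06 against -0.14 over all genes. These genes encode the enzymes of the mevalonate and cholesterol pathway, fatty acid synthesis and desaturation, and the SREBP factors that switch them on when sterols in the endoplasmic reticulum are low. Hmgcs1, the synthase that makes HMG-CoA, was at 173.7 CPM on day 5 (interval 168.4 to 179.2) and 19.9 on day 10 (18.4 to 21.5), a difference of -3.06. Its level had been 31.8 in naive cells and 332 on day 3, so the day 10 level lay below that of naive cells. Fdps, which makes farnesyl diphosphate, went from 181.6 to 26.1 (-2.75), although part of its sequence is shared with an overlapping gene model and pseudogenes, so its share of reads is uncertain. Cyp51, the lanosterol demethylase, went from 102 to 13.7 (-2.82). Control genes of the pathway moved the same way.

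Insig1, the sterol sensor that retains SREBP factors and is itself their target, went from 53.2 CPM on day 5 to 6.15 on day 10 (-2.92). Srebf2, which encodes the main factor for cholesterol genes, went from 151 to 57.4 (-1.38), and Srebf1, for fatty acid genes, from 35.3 to 15.2 (-1.17). The 2 stearoyl-CoA desaturases, which put the double bond into long fatty acids, were among the most reduced genes. Scd2 went from 301.8 (294.8 to 309) to 38.2 (36.1 to 40.4), a difference of -2.95, and Scd1 from 23.5 to 0.220 (-4.33), which rests on 7 UMIs on day 10 and was -1.71 with a pseudocount of 10. Fasn, the fatty acid synthase, changed less, from 81.2 to 36.6 (-1.13), and its difference lay under 2-fold in 4 alternatives and that of Srebf1 in 3, both with TMM scaling. The 3 members not called were Acaca (-0.87), Acly (-0.74) and Ebp (0.18). Acaca and Acly encode the enzymes that make malonyl-CoA and cytosolic acetyl-CoA, and Ebp a sterol isomerase.

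Fewer day 10 cells held UMIs of these genes. With every cell thinned to 2000 UMIs, the summed UMIs of the list had a median of 3 per cell on day 5 and 1 on day 10, and the cells with none were 8.86% on day 5 and 39.8% on day 10. Naive cells had a median of 1, with 34.6% at 0. Scd2 was found in 36.7% of day 5 cells (35.4 to 38.0) and 6.65% of day 10 cells (6.05 to 7.28), beside 5.88% of naive cells. Hmgcs1 was found in 23.1% and 3.42%, beside 6.04% of naive cells. Of the 20 members at 20 CPM with a RefSeq promoter window (the 250 bases before the start, GRCm38.p6), 1 held the sterol element TCACNCCAC on either strand, against 1.23% of 27025 genes with a window. That member is Hmgcs1, whose window (chr13:119690101-119690350, plus strand, with the matched element in capitals, 137 bases before the start) is shown because it is the most reduced gene of the pathway at 100 CPM or more.
Hmgcs1: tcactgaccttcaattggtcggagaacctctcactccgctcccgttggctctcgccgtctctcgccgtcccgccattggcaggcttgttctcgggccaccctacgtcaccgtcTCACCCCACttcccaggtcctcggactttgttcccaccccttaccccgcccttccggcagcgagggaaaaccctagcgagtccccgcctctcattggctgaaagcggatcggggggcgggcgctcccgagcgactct

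Genes of mitosis formed the largest group of lower genes. Of 61 genes on the G2 and mitosis list, 48 reached 20 CPM, 38 were at least 2-fold lower on day 10 and none was higher, with a median difference of -1.72. Mki67, the coat protein of mitotic chromosomes used as a marker of cycling cells, was at 242.5 CPM on day 5 (236.2 to 248.9) and 41.4 on day 10 (39.2 to 43.7), a difference of -2.52. Ube2c, the ubiquitin-conjugating enzyme of the anaphase-promoting complex, went from 177.1 to 34.7 (-2.32). Cenpf, a kinetochore protein, went from 134.7 to 27.0 (-2.28), and Cdk1, the mitotic kinase, from 66.5 to 15.9 (-2.00). Ccnb1 and Plk1, the mitotic cyclin B1 and polo kinase, differed by -2.18 and -2.22. The smallest differences on the list were those of Pttg1, which encodes securin (-0.40), and Ckap5, a microtubule polymerase (-0.59).

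Replication genes did not show a drop of that size, but their summed level on day 5 was also closer to that of naive cells. Of 52 genes on the S phase list, 23 reached 20 CPM, 2 were lower and none was higher, with a median of -0.42. The called members were Uhrf1 (-1.07), which reads hemimethylated DNA, and Rrm1 (-1.05), a subunit of ribonucleotide reductase. Both lay under 2-fold with TMM scaling, Uhrf1 in 5 alternatives and Rrm1 in 6, and in cells without a UMI of Mki67 or Top2a they differed by -0.16 and -0.17. The helicase subunit Mcm6 was at 59.3 CPM on day 5 and 61.9 on day 10, and Mcm4 at 30.0 and 30.4. Pcna, the replication clamp, went from 127.9 to 80.4, a difference of -0.66. Per thinned cell, the S phase list summed to a mean of 2.18 UMIs on day 5 and 1.70 on day 10, against 1.63 in naive cells. The mitosis list summed to means of 6.77 and 2.71, against 2.27 in naive cells. On day 10 both lists thus lay slightly above their naive means, and the smaller S phase drop does not show that replication genes persisted. Of the clustered histone genes, which are transcribed in S phase, 12 of 24 reached 20 CPM and 10 were lower, with a median of -1.62. The linker histone gene Hist1h1b went from 212 to 58.5 (-1.84). Several histone genes have near-identical copies, so the split of reads between them is uncertain.

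The share of cells with a UMI of Mki67 or Top2a, at 2000 UMIs per cell, was 19.4% on day 5 (18.4 to 20.5) and 7.84% on day 10 (7.20 to 8.53). It was 1.70% in naive cells, 8.18% on day 5 without cytokine and 49.0% on day 3 in the same dose. Of the cells with either gene, 778 of 1086 on day 5 and 207 of 505 on day 10 held Mki67, and the others held Top2a alone. The share was 2.24% on day 10 at 5 IU/mL, so the high-dose culture held more such cells on day 10 than the low-dose culture and fewer than its own day 5. With at least 3 UMIs of the mitosis list as the rule, the day 5 and day 10 shares were 32.3% and 22.8%, a smaller relative difference, and naive cells too had a 75th percentile of 3 UMIs of this list. Cells were then split by whether they held a UMI of either gene without thinning, which gave 1431 day 5 cells and 858 day 10 cells with one. Because these genes belong to the mitosis list, the split fixes part of that list's values. Among cells with such a UMI, 38 of 60 mitosis genes were lower on day 10 (median -1.13) while the S phase list had a median of 0.20. Among cells without one, 12 mitosis genes reached 20 CPM, of which 1 (Ube2c, -1.78) was lower, and their median was 0.05. Mitosis genes under 20 CPM in these cells are not part of that median. The sterol list was lower on both sides of the split, with medians of -2.13 (29 of 32 lower) and -1.95 (19 of 24 lower). Over all genes, 326 of 5783 were lower and 37 higher in cells with such a UMI. In cells without one, 153 of 5322 were lower and 45 higher. Of the 40 mitosis genes with a RefSeq window, 16 held TTTGAA, the core of the cell cycle element CHR, on either strand (40% against 18.3% of all genes), and 31 held CCAAT (77.5% against 37.5%). Among the 32 called ones 13 held TTTGAA and 25 held CCAAT, so called genes held them about as often as the whole list. For motifs, all genes are the 27025 with a window, whether expressed here or not. The window of Mki67 (chr7:135716380-135716629, minus strand) is shown as it holds 2 copies of TTTGAA, in capitals.
Mki67: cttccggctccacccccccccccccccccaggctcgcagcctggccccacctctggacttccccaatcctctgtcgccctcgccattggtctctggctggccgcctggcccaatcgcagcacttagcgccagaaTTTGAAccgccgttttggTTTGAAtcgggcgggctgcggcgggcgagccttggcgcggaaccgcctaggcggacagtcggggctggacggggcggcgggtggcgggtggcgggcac

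**Figure D2:**
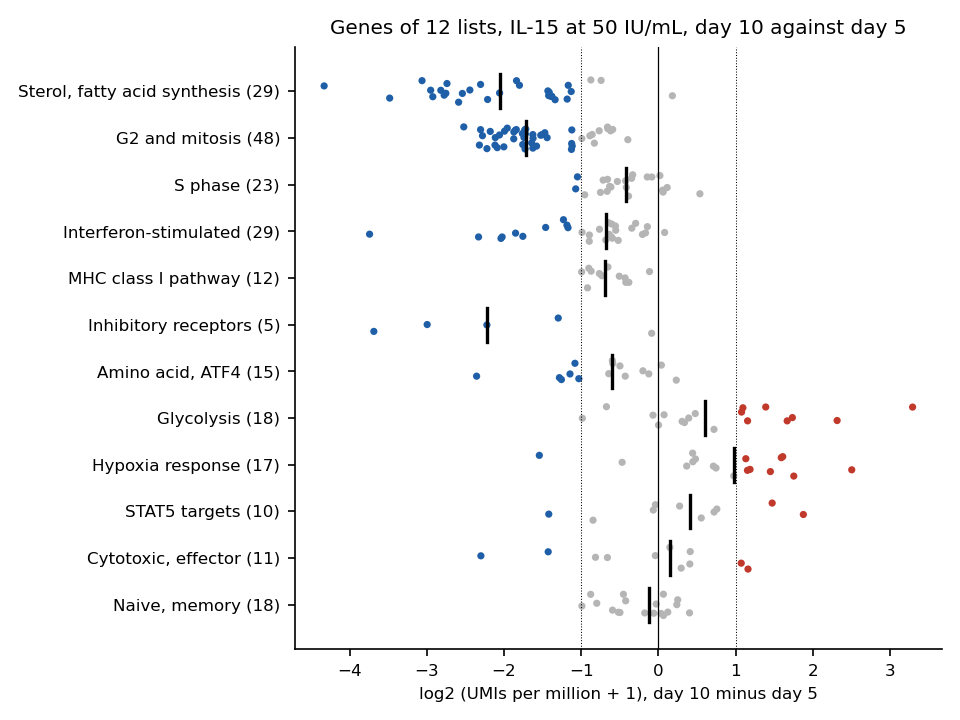
Each point is 1 gene at 20 CPM or more, placed by its log2 difference between day 10 and day 5, for 12 gene lists with the number of genes in brackets. Black bars are medians, dotted lines mark 2-fold. The sterol (median -2.06), mitosis (-1.72) and inhibitory receptor (-2.22) lists lie to the left, the glycolysis (0.60) and hypoxia (0.98) lists to the right.

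Some glycolytic genes moved the other way. Of 20 genes on the list, 18 reached 20 CPM, 8 were at least 2-fold higher on day 10 and none was lower, with a median difference of 0.60. The 8 higher genes cover uptake, the early and late steps of glycolysis and lactate export. Slc2a1, the glucose transporter GLUT1, was at 12.1 CPM on day 5 and 33.3 on day 10 (1.39), and differed by 0.97 with a pseudocount of 10. Hk2, the hexokinase that traps glucose in the cell, went from 24.9 to 85.3 (1.74), above its day 3 level of 50.9. Pfkl, the liver-type phosphofructokinase, was at 20.9 on day 5 (19.1 to 22.9) and 108 on day 10 (104.5 to 111.8), a difference of 2.32, and Pfkp, the platelet-type enzyme, at 111.5 and 239.

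Pgam1, the phosphoglycerate mutase, was at 118.9 CPM on day 5 (114.6 to 123.5) and 380.4 on day 10 (373.6 to 387.2), a difference of 1.67, and 51.1% of day 10 cells held a UMI of it against 19.8% of day 5 cells and 10.7% of naive cells. Tpi1, the triose-phosphate isomerase, went from 292.6 to 619 (1.08) and Eno1, the enolase, from 264 to 589 (1.16). Pgam1 and Eno1 have pseudogenes or near copies that share part of their 3' sequence, so some of their reads are uncertain. Slc16a3, the lactate exporter MCT4, was at 4.94 on day 5 and 57.2 on day 10 (3.29), and was found in 0.859% of day 5 cells and 10.6% of day 10 cells. It differed by 2.17 with a pseudocount of 10. Of the abundant enzymes, 3 showed small differences. Aldoa was at 1839 and 1841, Pgk1 at 1469 and 1546, and Gapdh at 2031 and 2514 (0.31). Ldha, the lactate dehydrogenase, differed by 0.72, and Aldoc by -0.67. The 3 most abundant of these enzymes were not among the genes past 2-fold.

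Hypoxia-response genes are those that the factor HIF-1 induces when its hydroxylases are inactive. Of 22 genes, 17 reached 20 CPM, 8 were higher and 1 was lower, with a median of 0.98. Bnip3, a mitophagy receptor of the outer mitochondrial membrane, showed the largest rise of all genes at 100 CPM or more. It was at 24.8 on day 5 (22.8 to 26.9) and 145.3 on day 10 (141.2 to 149.6), a difference of 2.51, after 2.38 in naive cells and 42.9 on day 3. Part of its 3' sequence is shared with pseudogenes and part of its exons lies opposite Gm45507, and the sources used here do not say whether the counting used strand. It was found in 4.01% of day 5 cells (3.51 to 4.56) and 24.3% of day 10 cells (23.2 to 25.3), beside 0.514% of naive cells. Egln3, one of the HIF prolyl hydroxylases and itself a HIF target, went from 11.8 to 34.0 (1.45). The collagen prolyl hydroxylase subunits P4ha1 and P4ha2 differed by 1.75 and 1.19. Ndrg1 (1.61), Mxi1 (1.59), an antagonist of MYC, Ero1l (1.15), the endoplasmic reticulum oxidase, and Fam162a (1.13) complete the group. P4ha2 differed by 0.82 with a pseudocount of 10. Hif1a, which encodes the oxygen-regulated subunit of the factor, was the lower member, at 172.7 on day 5 and 58.7 on day 10 (-1.54). Vegfa, Car9, Ankrd37, Plin2 and Selenbp1 did not reach 20 CPM in either library.

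All 7 called hypoxia genes with a RefSeq window, Hif1a included, held ACGTG, the core of the HIF binding site, on either strand, as did 2 of the 7 uncalled members with a window. Over the glycolysis list 9 of 17 windows held it, 4 of them among the 8 called genes, and over all 27025 genes 18.5% did. Of the 7 called hypoxia genes, Egln3, Mxi1 and P4ha2 passed the 20 CPM filter only through day 10, where they were high. The contrast with the uncalled members thus depends in part on that filter. These matches describe letters in a window of 250 bases and not binding. The windows of Bnip3 (chr7:138909520-138909756, minus strand, without the bases that lie in its first exon) and Pgam1 (chr19:41911621-41911870, plus strand) are shown as the members of each list with the largest rise among genes at 100 CPM or more that hold the core, which is in capitals. In Bnip3 the capitals read the core on both strands.
Bnip3: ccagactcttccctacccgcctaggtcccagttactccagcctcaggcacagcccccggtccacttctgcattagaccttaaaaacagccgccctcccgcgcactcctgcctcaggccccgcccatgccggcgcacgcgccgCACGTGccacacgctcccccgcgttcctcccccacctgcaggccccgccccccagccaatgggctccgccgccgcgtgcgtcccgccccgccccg
Pgam1: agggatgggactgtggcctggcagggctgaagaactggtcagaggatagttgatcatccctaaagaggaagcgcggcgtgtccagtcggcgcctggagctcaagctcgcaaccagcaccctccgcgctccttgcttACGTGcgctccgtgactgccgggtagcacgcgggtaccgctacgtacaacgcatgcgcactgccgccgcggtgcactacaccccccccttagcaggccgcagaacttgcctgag

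Per cell, thinned to 2000 UMIs, the glycolysis list summed to a median of 17 UMIs on day 5 and 23 on day 10, against 3 in naive cells. The hypoxia list summed to 4 and 7, against 2 in naive cells. On day 3 at this dose the medians were 26 for glycolysis, above day 10, and 5 for hypoxia. The 25th percentile for glycolysis on day 10 (17) equalled the day 5 median, so at least 3 in 4 day 10 cells lay at or above the day 5 median. On day 5 Mki67 was found in 38.8% of the 224 cells with Bnip3 (32.4 to 45.6) and 12.9% of the others. On day 10 Mki67 was found in 4.48% of the 1563 cells with Bnip3 (3.51 to 5.63) and 2.81% of the others. Among cells without a Mki67 or Top2a UMI, 8 of 18 glycolysis genes were higher on day 10 (median 0.73) and the hypoxia list had a median of 0.97. Among cells with one, 6 of 18 glycolysis genes were higher and 1 was lower (median 0.47), and the hypoxia list had a median of 0.77. There Tpi1, Pfkp, Fam162a and Ero1l lay under 2-fold. Over all genes, 45 of 5322 were higher in the cells without such a UMI and 37 of 5783 in those with one.

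**Figure D3:**
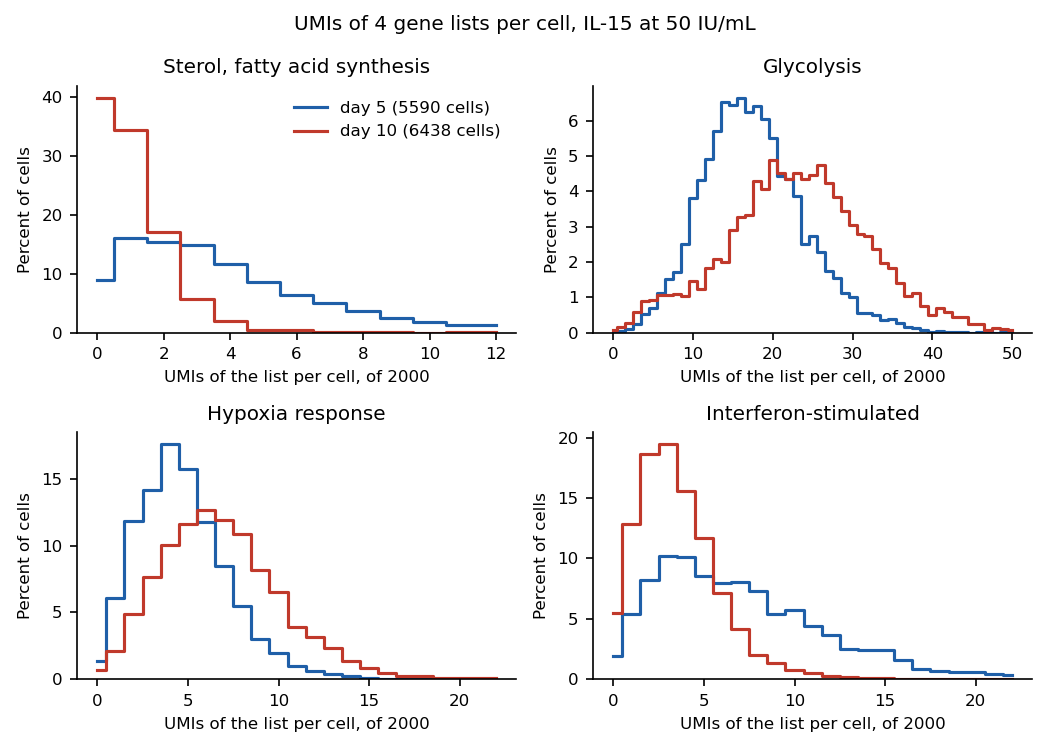
Percent of cells (vertical) by the number of UMIs of a gene list per cell (horizontal), with each cell thinned to 2000 UMIs, for day 5 (blue, 5590 cells) and day 10 (red, 6438 cells) in IL-15 at 50 IU/mL. Cells beyond the right end of an axis are not drawn. The sterol list shifts from a median of 3 to 1 and the glycolysis list from 17 to 23, and the interferon list loses its right tail (90th percentile 14 on day 5, 6 on day 10).

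Of the genes induced by interferons, a family of antiviral cytokines, some were lower on day 10. Of 46 genes, 29 reached 20 CPM, 10 were at least 2-fold lower and none was higher, with a median of -0.68. Iigp1, an interferon-inducible GTPase that attacks the vacuoles of intracellular parasites, had the largest drop of all genes at 100 CPM or more. It was at 193.3 on day 5 (187.7 to 199) and 13.5 on day 10 (12.3 to 14.9), a difference of -3.74. Its level was 22.3 in naive cells and 107.8 on day 3, so day 5 was the highest of the 4 days in IL-15 at 50 IU/mL. The share of cells with a UMI of Iigp1 went from 24.5% to 2.45%, beside 3.60% of naive cells. Stat2, a transcription factor of the interferon response, differed by -1.23. The guanylate-binding proteins Gbp2 (-2.02), Gbp6 (-2.33) and Gbp7 (-1.18) and the GTPases Igtp (-1.85), Irgm1 (-1.46) and Tgtp2 (-1.76) were lower too. Gbp6 and Tgtp2 share most of the 3' sequence examined with neighbouring family members, so their values are uncertain. Gbp7 lay just under 2-fold with TMM scaling, and Stat2 differed by -0.82 with a pseudocount of 10. The exons of Igtp overlap Irgm2 in part. Irf1 (-0.89), Irf9 (-0.55), Bst2 (-0.60) and Slfn2 (-0.21) did not pass 2-fold.

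The day 5 cells were spread widely for this list. At 2000 UMIs per cell its summed UMIs had a 75th percentile of 10 and a 90th percentile of 14 on day 5, and 5 and 6 on day 10. The median went from 6 to 3, against 5 in naive cells. The MHC class I pathway, which interferon also raises, had 12 of 12 members below 0 with none past 2-fold and a median of -0.69. B2m, the light chain of class I molecules, was at 2933 on day 5 and 1603 on day 10 (-0.87), and Tap1, a subunit of the peptide transporter, at 174.5 and 87.1 (-0.99). All 6 called interferon genes with a RefSeq window held TTTC, any 2 bases and TTTC again, the core of the interferon-stimulated response element, on either strand, as did 6 of the 14 uncalled members with a window, against 3.46% of all genes. Of the 6 called genes, Stat2 and Tgtp2 passed the 20 CPM filter only through day 5, where they were high. The window of Igtp (chr11:58199306-58199555, plus strand) is shown as the called gene with the highest day 5 level among the 6. Its match, in capitals, lies 34 bases before the start and reads the element on the other strand.
Igtp: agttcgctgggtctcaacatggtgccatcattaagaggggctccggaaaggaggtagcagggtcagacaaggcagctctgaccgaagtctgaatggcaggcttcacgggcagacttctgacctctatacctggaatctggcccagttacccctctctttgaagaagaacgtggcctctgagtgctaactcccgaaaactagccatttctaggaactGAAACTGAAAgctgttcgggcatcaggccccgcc

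Of 10 inhibitory receptor genes, 9 are in the tables, 5 reached 20 CPM and 4 were lower, with a median of -2.22. Lag3, Cd200 and Btla passed that filter only through day 5, where they were high. With no expression filter the median was smaller in size, as given in the closing section. Lag3, which binds MHC class II, was at 31.3 on day 5 and 1.51 on day 10 (-3.69), and Cd200 at 29.2 and 2.79 (-3.00). With a pseudocount of 10 they differed by -1.84 and -1.62. Ctla4, which competes with CD28 for its ligands, went from 118.6 to 24.6 (-2.22), and was found in 21.1% of day 5 cells and 4.72% of day 10 cells. Btla differed by -1.30, and Cd160 by -0.09. Of 9 costimulatory receptor genes at 20 CPM, 2 were lower, with a median of -0.36. Tnfrsf9, the costimulatory receptor 4-1BB, went from 23.7 to 7.53 (-1.53), and Cd28 from 102.7 to 50.1 (-1.02), which lay under 2-fold in 5 alternatives, TMM scaling among them. Btla and Tnfrsf9 lay under 2-fold with a pseudocount of 10. The factors Irf4 and Irf8, which rise with T cell receptor signalling, went from 23.7 to 4.93 (-2.06) and from 37.7 to 6.90 (-2.29). The other 8 effector and memory factors at 20 CPM did not pass 2-fold, among them Eomes (0.63), Id2 (0.75) and Batf (-0.69). The killer lectin genes Klrd1 and Klrk1, which encode CD94 and NKG2D, differed by -1.36 and -1.45. Il12rb2, a chain of the IL-12 receptor, went from 72.8 to 19.2 (-1.87) and was the called member among 12 other cytokine receptor genes (median -0.24). The surface antigen Ly6a went from 594.5 to 199 (-1.58) and was the called member among 14 memory surface genes (median -0.27).

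The genes of IL-15 signalling differed among themselves. Cish, which encodes a STAT5-induced inhibitor of cytokine signalling, was at 31.2 CPM on day 5 (29.0 to 33.5) and 117 on day 10 (113.5 to 121.1), a difference of 1.88. It was found in 5.51% of day 5 cells and 19.3% of day 10 cells, beside 0.895% of naive cells. Osm, which encodes the cytokine oncostatin M, went from 10.95 to 32.2 (1.47). Pim2, a survival kinase, was the lower member, at 190.3 and 70.5 (-1.42). The other 7 of the 10 STAT5 target genes at 20 CPM did not pass 2-fold, and the median of the list was 0.42. The motif TTCNNNGAA was found in 1 of the 6 members with a RefSeq window and in 0 of the 2 called ones, against 8.13% of all genes. Bcl2, which blocks apoptosis, was at 600.2 on day 5 and 1015 on day 10 (0.76), and 85.5% of day 10 cells held a UMI of it against 66.2% of day 5 cells and 28.2% of naive cells. Socs1 differed by 0.72 and Socs2 by -0.85. None of the 10 genes of the receptor and its kinases passed 2-fold. Il2rb was at 324.7 and 275.5 (-0.24), Il2rg at 280.5 and 234 (-0.26), and Il2ra, the alpha chain that serves IL-2, at 110.9 and 57.2 (-0.94). Jak1 differed by 0.35.

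Cytotoxic genes were split. Of 26 genes, 11 reached 20 CPM, 2 were higher and 2 lower, with a median of 0.15. Gzmb, the granzyme that starts apoptosis in target cells, was at 461.9 on day 5 (453.2 to 470.7) and 93.1 on day 10 (89.7 to 96.5), a difference of -2.30, after 6.50 in naive cells and 899 on day 3. It was found in 50.7% of day 5 cells (49.4 to 52.1) and 14.0% of day 10 cells (13.2 to 14.9), beside 0.537% of naive cells. Serpinb6b, a protease inhibitor, differed by -1.43. Ccl5, a chemokine stored by memory CD8 T cells, was at 271 on day 5 and 607 on day 10 (1.16), was found in 13.6% and 29.0% of cells, and differed by 0.97 when cells over 5% mitochondrial UMIs were left out. Prf1, the pore-forming perforin, went from 9.66 to 21.4 (1.07), close to the 20 CPM limit, and differed by 0.68 with a pseudocount of 10. On day 10 Prf1 was found in 5.42% of the 904 cells with Gzmb (4.04 to 7.10) and 4.26% of the others (3.75 to 4.83), with overlapping intervals. Nkg7, a granule membrane protein, differed by 0.41, and Srgn, the granule proteoglycan, by -0.66.

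No gene of the naive and memory list passed 2-fold over all cells, and 1 was lower in cells without a UMI of Mki67 or Top2a. Of its 20 genes, 18 reached 20 CPM, with differences from -0.99 to 0.40 and a median of -0.12, which was 0.07 with TMM scaling. Tcf7, the factor TCF1 of naive and stem-like memory cells, was at 206 on day 5 and 144 on day 10 (-0.52), below 471 in naive cells, and was found in 32.4% and 24.5% of cells. Il7r, the IL-7 receptor, was at 178 and 96.6 (-0.88). Ccr7 (0.40) and Klf2 (0.24) had small positive differences. Tcf7 was found in 28.0% of day 5 cells with Gzmb and 37.0% of the others, and in 19.1% and 25.4% on day 10. S100a6, a calcium-binding protein of effector and memory cells, was at 660.4 and 1334 (1.01), and lay under 2-fold in 6 of the alternatives.

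**Figure D4:**
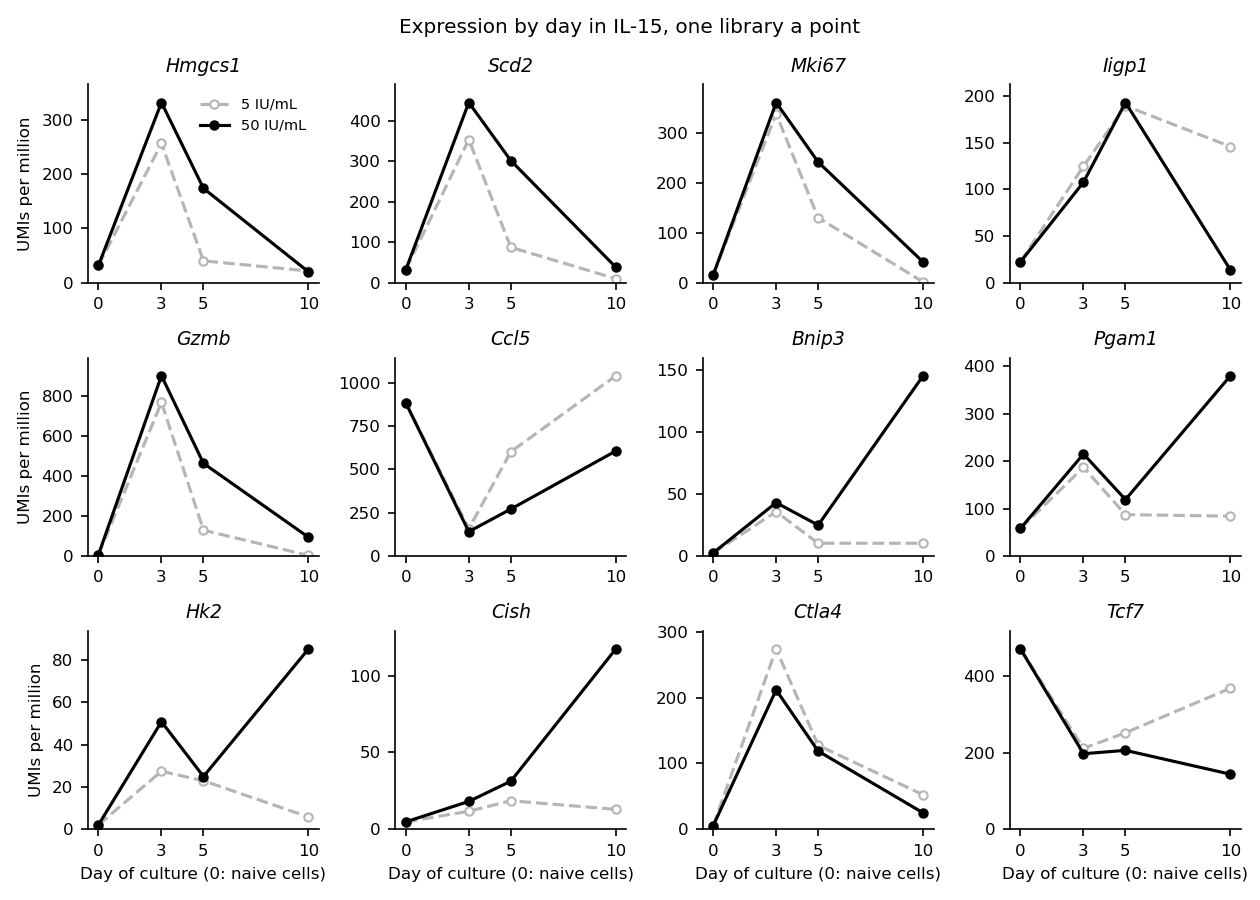
CPM (vertical) of 12 genes by day of culture (horizontal, day 0 are naive cells) in IL-15 at 50 IU/mL (black, solid) and 5 IU/mL (grey, dashed), with 1 library per point and no error between cultures. Bnip3, Pgam1, Hk2 and Cish are highest on day 10 at 50 IU/mL only among the points drawn, while Hmgcs1, Scd2, Mki67 and Gzmb peak on day 3 at both doses.

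Amino acid transport and synthesis genes, many of them targets of ATF4, were lower in part. Of 26 genes, 15 reached 20 CPM, 6 were lower and none was higher, with a median of -0.60. Slc7a5, the large neutral amino acid transporter LAT1, went from 53.7 to 9.70 (-2.35). Its partner chain Slc3a2 was at 61.5 and 63.2 (0.04). Atf4 itself differed by -1.28, the arginine transporter Slc7a1 by -1.26 and the serine synthesis gene Psat1 by -1.08. Slc7a1 lay just under 2-fold with a pseudocount of 10 and Atf4 in cells without a UMI of Mki67 or Top2a. Psat1 lay under 2-fold in 5 alternatives, and Mthfd2 and Aldh18a1, also among the 6, in 4 and 2, each with TMM scaling among them.

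Gm42418 and AY036118 overlap each other on opposite strands of chromosome 17, where sequence of ribosomal RNA is known to be counted, and Lars2 is a mitochondrial tRNA synthetase gene on chromosome 9. Gm42418 went from 15916 to 2655 CPM (-2.58), AY036118 from 1351 to 257 (-2.39) and Lars2 from 401 to 61.9 (-2.68). The same 3 genes were lower on day 10 than on day 5 in all 6 cytokine and dose pairs, with differences of Gm42418 from -2.95 to -1.89. With these genes and Gm26917 left out of the totals, 42 genes were higher and 259 lower.

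The low-dose IL-15 pair, day 10 against day 5 at 5 IU/mL, is the closest comparison. It shares no library with the high-dose pair, and no difference between the pairs was tested. Of 5463 genes, 72 passed 2-fold in the higher direction (1.32%) and 189 in the lower (3.46%). The pairs shared 5 higher genes, which are 11.1% of the 45 high-dose and 6.94% of the 72 low-dose genes, and 94 lower genes, which are 38.7% and 49.7%. Mitosis genes were lower in both, with 35 of 42 lower and a median of -3.28 at low dose. The sterol list had a median of -0.87 at low dose, with 7 of 16 lower, but its day 5 levels were already lower there. Hmgcs1 was at 40.2 on day 5 and 21.5 on day 10 at 5 IU/mL, against 173.7 and 19.9 at 50 IU/mL. Scd2 was at 87.3 and 9.82 at 5 IU/mL (-3.03), against 301.8 and 38.2 at 50 IU/mL (-2.95). The doses thus had close day 10 levels of Hmgcs1 but not of Scd2.

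The medians of the glycolysis and hypoxia lists had opposite signs in the pairs. At low dose the glycolysis list had 1 higher and 4 lower of 14 members and a median of -0.49, and the hypoxia list 0 higher and 2 lower of 11 and a median of -0.11. Bnip3 was at 10.2 on both days at 5 IU/mL, Pgam1 at 87.1 and 83.8, and Hk2 at 22.9 and 5.75. Pfkl was higher at both doses, at 13.9 and 32.6 (1.17) at 5 IU/mL. Cish was at 18.5 and 12.8. Iigp1 was at 189.7 and 146 (-0.38), and 1 of 33 interferon genes was lower (median -0.31). Gzmb went from 128 to 2.23 (-5.32), a larger drop than at high dose. Il7r and Klf2 were higher on day 10 at 5 IU/mL, with differences of 1.38 and 1.16.

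Among the other 4 pairs, IL-2 at 5 IU/mL had the largest share of the 45 higher genes in common, with 23 (51.1% of the 45 and 8.81% of its own 261, where 4.62% of all genes tested were higher). In that pair the glycolysis list had a median of 1.04 and the STAT5 targets 1.71, against 0.26 over all genes, and Cish differed by 4.38. Of the same 45 genes, 27 were at least 2-fold lower in IL-2v at 5 IU/mL, where 4.21% of all genes tested were lower. In IL-2 at 50 IU/mL 15 of the 45 were lower, and in IL-2v at 50 IU/mL 13, where 19.4% and 11.6% of all genes tested were. Of the 243 lower genes, 126 were lower in IL-2 at 50 IU/mL (51.9% of the 243 and 11.1% of its 1135), where 19.4% of all genes tested were lower. In IL-2v at 50 IU/mL they were 121 (49.8%, and 16.9% of its 714), where 11.6% of all genes were lower, and in IL-2 at 5 IU/mL 32 (13.2%, and 28.1% of its 114), where 2.02% were. In IL-2v at 5 IU/mL they were 34 (14.0%, and 13.9% of its 244), where 4.21% were. The lists differ in length, so these counts give no order of likeness. The sterol list had medians of 0.14 for IL-2 at 50 IU/mL, -0.07 for IL-2 at 5 IU/mL, -0.66 for IL-2v at 50 IU/mL and 0.07 for IL-2v at 5 IU/mL, so the high-dose IL-15 median of -2.06 was the lowest of the 6. The hypoxia list had medians of -1.23, 0.39, -1.09 and -1.72 in the same order, so the high-dose IL-15 median of 0.98 was the highest of the 6. These are orders of single values without replicates. The medians also rest on different members, as from 16 to 32 sterol genes and from 11 to 21 hypoxia genes reached 20 CPM in a pair.

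**Figure D5:**
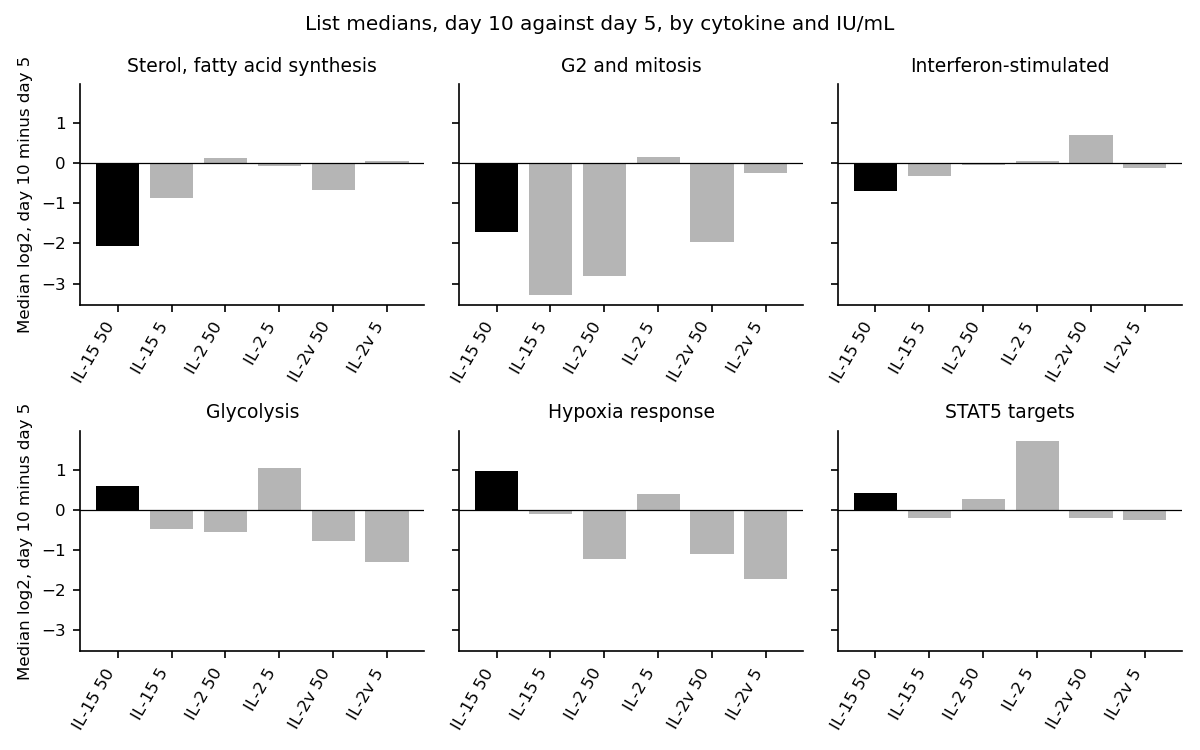
Median log2 difference between day 10 and day 5 (vertical) of 6 gene lists in the 6 pairs, named by cytokine and IU/mL, with the high-dose IL-15 pair in black. The sterol median is lowest (-2.06) and the hypoxia median highest (0.98) in high-dose IL-15, while the mitosis median is lower than in high-dose IL-15 in IL-15 at 5 IU/mL (-3.28), IL-2 at 50 IU/mL (-2.81) and IL-2v at 50 IU/mL (-1.97).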

How the data were processed

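The 21 deposited tables hold UMI counts per gene and cell, and the values were whole numbers for 17516 gene symbols in each. Per the submitters' processing notes, Cell Ranger, Seurat 4.0.1 and 3.0.2 and the build mm10 were used by the authors, with no role given for each. How empty droplets and doublets were treated, and whether counting used strand, is not given in the sources used here.

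The cell filter asked for 1000 UMIs and 500 genes or more and for no more than 10% mitochondrial UMIs, which removed 2 cells in all libraries. Counts were summed per library, scaled to CPM and compared as log2(CPM + 1), for genes at 20 CPM or more in either library, with a size of 1 as the call. This pair has 1 library a day and so no test of its own. No doublet caller was run. The genes named are the 12 largest rises and 12 largest drops at 100 CPM or more, and members of 40 gene lists. The members and lists were chosen with earlier results of these data known. Alternatives covered cell filters, possible doublets, other lineages, scaling, weighting, pseudocount, expression filter, cycling cells and depth, and 2 were chosen after seeing the data. The calculation was tested on simulated data for this comparison over 5182 genes, where 99.5% of 200 genes changed 4-fold were recovered and 0 unchanged genes were called. The simulated counts held counting error only, so this result says nothing about differences between cultures or library preparations. Promoter windows came from RefSeq tables (GRCm38.p6), trimmed where they overlap an exon of the same gene when shown, and overlaps from GENCODE vM21. Python 3.11.15, numpy 2.4.6, scipy 1.17.1, matplotlib 3.10.9, R 4.3.3 and edgeR 4.0.16 (for TMM factors) were used. A few genes of the lists are not reported here.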

Additional observations from a re-analysis of the deposited data

Results flagged for a closer look

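Some genes moved in opposite directions between day 5 and day 10 at the 2 doses of IL-15, and some list medians had opposite signs. In each case the difference was not tested, since each condition has 1 library. Of the 45 higher genes at 50 IU/mL, 3 were at least 2-fold lower at 5 IU/mL, where 3.46% of all genes tested were lower. Of the 243 lower genes, 0 were at least 2-fold higher at 5 IU/mL, where 1.32% of all genes tested were higher. Hk2, the hexokinase, differed by 1.74 at 50 IU/mL and by -1.82 at 5 IU/mL. Tpi1, the triose-phosphate isomerase, differed by 1.08 and -1.11. S100a6, a calcium-binding protein, differed by 1.01 and -1.78, and its value at 50 IU/mL lay under 2-fold in 6 alternatives. The glycolysis list had medians of 0.60 at 50 IU/mL and -0.49 at 5 IU/mL. The hypoxia list had medians of 0.98 over 17 genes and -0.11 over 11, and of these 11 genes 4 were above 0 and 7 below.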

How the results depend on the processing

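With 1 library per condition, the alternatives show how the values move with the processing, not how cultures vary. No paired analysis was possible because this pair has 1 library a day. A fit of the day over all 6 cytokine and dose pairs, which asks about the day in general, was not run. Of 26 counts of genes, 21 were within 1.5 times the reported value. The 45 higher genes became 73 with totals without ribosomal protein and mitochondrial genes and 78 with no expression filter. The 243 lower genes became 152 with a pseudocount of 10, 702 with no expression filter and 153 in the cells that held no UMI of Mki67 or Top2a. Among 1924 values of single genes under an alternative, 565 moved beyond counting error and 6 reversed, and among 520 list medians 98 moved and 9 reversed. Of the 148 called genes named or on a list, 73 stayed past 2-fold in every alternative run, 50 fell under it in 1 and 25 in 2 or more. The 6 genes that reversed did so in the cells with no UMI of Mki67 or Top2a: Kif20b (0.24), Smc2 (0.62), Dlgap5 (0.56), Tuba1c (0.40), Hist1h2ae (0.30) and H2afx (0.32). There the mitosis list had a median of 0.051 over 12 genes and the S phase list 0.11 over 11. The histone list had -0.56 over 4 genes and the glycolysis list 0.73 over 18. The split itself removes cells by 2 mitosis genes. For the other changes the cause was not tested. With TMM scaling the medians were 0.073 for the naive and memory list, 0.029 for the proteasome, 0.064 for immediate early genes, 0.042 for redox genes, 0.79 for glycolysis, 1.16 for hypoxia, -0.44 for mitochondrially encoded genes, -0.41 for amino acid genes, -1.53 for mitosis, -0.50 for MHC class I, -0.50 for interferon genes and -0.44 for the GIMAP genes. With totals without ribosomal protein and mitochondrial genes they were 0.024 for the naive and memory list, -1.64 for inhibitory receptors, -0.49 for mitochondrially encoded genes, -1.87 for sterol genes, -0.55 for MHC class I and -0.49 for the GIMAP genes. With a pseudocount of 10 they were -1.62 for inhibitory receptors, 0.72 for hypoxia, -1.26 for sterol genes, -1.23 for mitosis, -0.55 for interferon genes and -1.21 for histones. With no expression filter they were -0.049 for cytotoxic genes, -0.039 for STAT5 targets, -1.04 for inhibitory receptors, 0.44 for glycolysis, 0.69 for hypoxia and -1.84 for sterol genes. Cells with at most 5% mitochondrial UMIs gave -0.35 for mitochondrially encoded genes, -1.92 for mitosis and -1.82 for histones. Leaving out cells over 2 times the median UMIs gave -1.95 for mitosis, the cells free of other lineages' markers -1.44 for histones, and the mean of single-cell CPM -1.46 for histones. The filter on other lineages' markers left out 1704 day 5 cells and 1414 day 10 cells. With Ighm not counted it left out 237 and 153, so most cells removed depended on Ighm UMIs. The share of cells with a UMI of Mki67 or Top2a was 15.4% on day 5 and 5.24% on day 10 at 1000 UMIs per cell. Without thinning it was 24.6% and 13.1%. With at least 3 UMIs of the mitosis list as the rule, the shares were 32.3% and 22.8%. Naive cells had a 75th percentile of 3 UMIs of this list, so that rule also takes in many naive cells.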

Other observations

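None of 75 nuclear genes of oxidative phosphorylation passed 2-fold (median 0.02, from -0.59 to 0.43), nor did any of 17 genes of the citric acid cycle (median -0.05), 16 of fatty acid oxidation (-0.08), 34 of ribosome biogenesis (-0.30) or 85 ribosomal protein genes (0.26, with 73 of the 85 above 0, and -0.14 over all genes). Of 13 mitochondrially encoded genes, 4 were lower and none higher, with a median of -0.63 and the largest difference for mt-Nd6 (-1.88). Of the lower genes, mt-Nd5 (-1.12) lay under 2-fold in 3 alternatives, among them the limit of 5% mitochondrial UMIs.

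None of 14 genes of the T cell receptor complex (median -0.21) or 11 chemokine receptor and homing genes passed 2-fold. The GIMAP genes, a family of lymphocyte GTPases, had a median of -0.63 over 8 genes with none past 2-fold. Of 15 immediate early genes, 2 were higher and 1 lower, among them Dusp2 (1.18), a phosphatase of MAP kinases, and Zfp36 (-1.57), which promotes decay of cytokine mRNA. Sod1, the cytosolic superoxide dismutase, went from 204.7 to 75.2 CPM (-1.43).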
